A study of Homo sapiens with 18 samples.

Results

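The liver X receptors (LXRs) and the genes through which they govern cholesterol efflux were followed in Hep3B cells by RNA-seq. The set holds 9 genes, taken by their symbols from a written list: the receptors NR1H2 and NR1H3, the transporters ABCA1, ABCG1, ABCG5 and ABCG8, and the target genes MYLIP, LPCAT3 and SMPDL3A. All 9 are among the 36684 gene symbols of the count table, and 8 of them were among the 14557 genes with enough counts to be tested. ABCG1 was the exception. The study asked what fucoxanthin (FUCO), a carotenoid of brown algae, does to liver cells loaded with free fatty acids (FFA). It used 6 groups of 3 libraries. Con cells received no FFA, Model cells received FFA alone, and the groups FUCO-0.5, FUCO-1 and FUCO-2 received FFA with FUCO at 0.5, 1 or 2 μM. RES cells received FFA with Resmetirom, an agonist of thyroid hormone receptor β. Every group other than Con therefore shares the FFA exposure. The cells are 1 human hepatoma line, and the replicates are described as biological. The FFA concentration, the treatment times and the dose of Resmetirom are not given for these libraries in the sources used here.

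LXRα (encoded by NR1H3) and LXRβ (NR1H2) are nuclear receptors that bind oxysterols and pair with a retinoid X receptor (RXR) on DNA. When sterols accumulate they raise the transcription of genes that move cholesterol out of the cell or limit its uptake, and in liver they also raise SREBF1 and with it fatty acid synthesis. ABCA1 hands cholesterol to lipid-poor apolipoprotein A-I, ABCG1 to formed high-density lipoprotein, and ABCG5 and ABCG8 form a heterodimer that exports sterols into bile.

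The libraries held 16916688 to 23083498 counts each. Levels are CPM (counts scaled by library size with TMM factors), given as mean ± SD of n = 3 libraries where they are not given singly. Of 8 hepatocyte markers all were detected in every group, with ALB, the albumin gene, at 33912 CPM in Model. Their summed level ran from 62263 to 70211 CPM in Con, from 51599 to 52106 in Model, from 34770 to 39090 in FUCO-2 and from 14936 to 15294 in RES. Of 6 macrophage markers, CD163 and MARCO had 0 counts in all 18 libraries and PTPRC had at most 0.0580 CPM as a group mean, while LYZ went from 3.16 ± 0.420 CPM in Con to 15.9 ± 3.07 in Model and CD14 from 3.58 ± 0.133 CPM in Model to 11.7 ± 0.868 in RES. Because these are bulk libraries, a smaller share of cells that express a gene and less of its RNA per cell cannot be told apart.

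The widest change in the set was with RES. Against Model, RES lowered ABCA1 to 43.4%, MYLIP to 43.2%, ABCG5 to 45.6% and ABCG8 to 28.1% of the Model level. It lowered NR1H3 and LPCAT3 less, and NR1H2 and SMPDL3A were higher. All 8 tested members passed an adjusted p under 0.05 (edgeR's quasi-likelihood test, Benjamini-Hochberg over all tested genes), 6 lower and 2 higher. In that comparison 49.4% of all tested genes were called, and 25.1% were called lower. With an absolute log2 fold change over 1 as well, the study's rule for a differentially expressed gene (DEG), 4 members remained, against 9.91% of all tested genes.

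FFA alone lowered 2 of the 8 tested members, ABCA1 and NR1H3, where 17.6% of all tested genes were called and 9.12% were called lower. None of the 8 was a DEG, against 1.95% of all genes. FUCO lowered MYLIP at every dose. It was the only member called of 8 at 0.5 μM, where the share over all genes was 1.45% (1.16% lower), and again at 1 μM, where it was 3.21% (2.32% lower). At 2 μM, 4 members were called, MYLIP, SMPDL3A, ABCA1 and LPCAT3, all lower, against 20.5% of all genes (9.71% lower). No member was a DEG at any dose of FUCO, against 0.268%, 0.495% and 1.6% of all genes at 0.5, 1 and 2 μM. The median log2 fold change of the 8 was −0.04 in Model against Con, 0.01, 0.04 and −0.08 at the rising doses of FUCO and −0.88 with RES. The FUCO and RES comparisons share the 3 Model libraries.

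**Figure D1:**
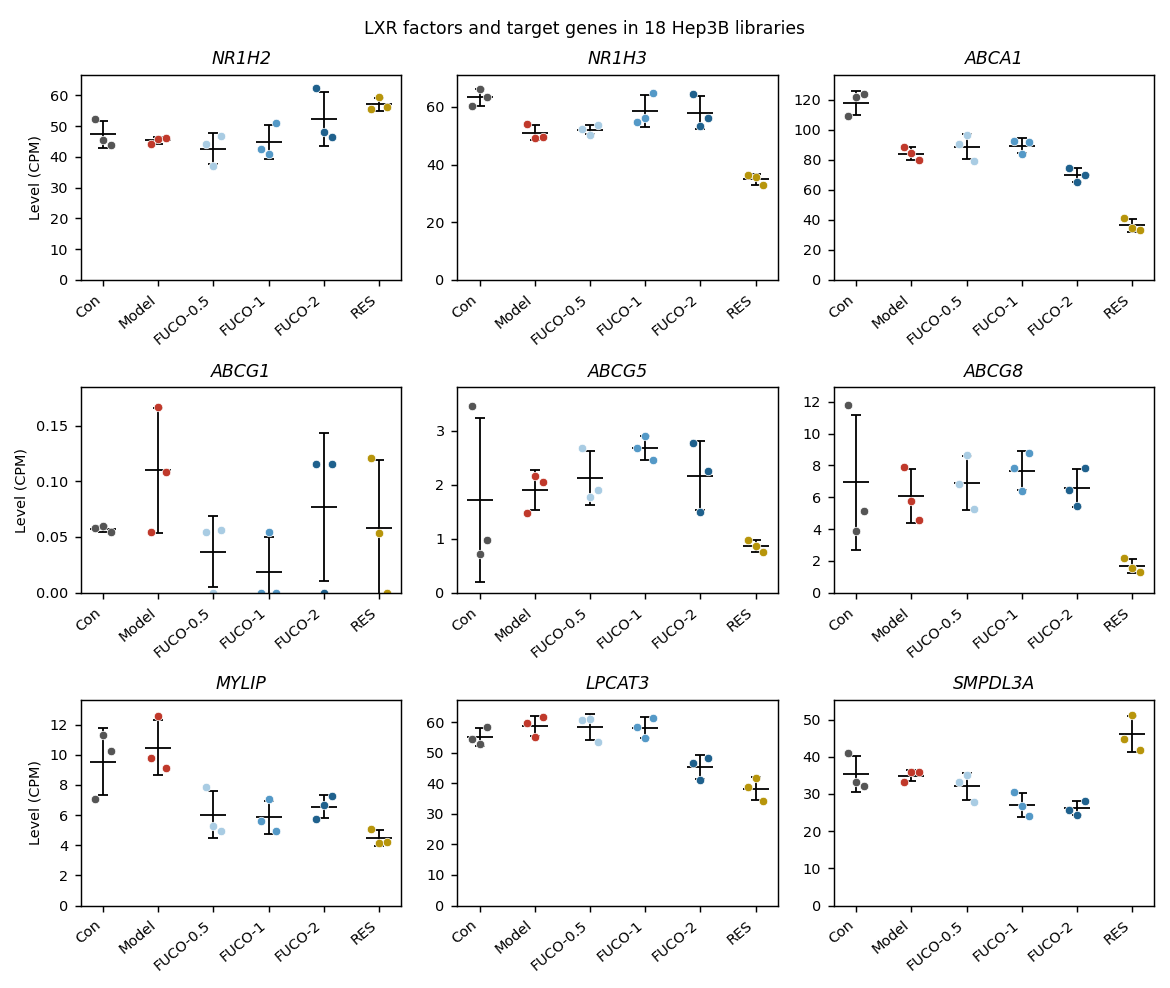
Level of each of the 9 genes in CPM (vertical axes, from 0, a separate scale per gene) in the 6 groups, with 1 point per library and bars for the mean ± SD of 3 libraries. The 3 RES points of ABCA1 lie between 33.4 and 41.4 CPM, below every other library, and those of SMPDL3A between 41.8 and 51.3 CPM, above every other library. ABCG1 lies at 3 counts or fewer in every library.

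ABCA1 was the member with the most counts and a sequence match to the LXR response element, so the 250 bases before its RefSeq start site are shown. LXR-RXR pairs bind a direct repeat of the hexamer AGGTCA with 4 bases between the copies (DR4), a layout also used by thyroid hormone receptors. The full DR4, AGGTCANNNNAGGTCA, was in 7 of 35116 promoter windows of 300 bases (0.0199%) on either strand, and in none of the members' windows. A relaxed form, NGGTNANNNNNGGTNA, which includes the full form, was in 219 windows (0.624%), among them that of ABCA1. The window runs on the minus strand of GRCh38.p14, chr9:104928156-104928405, upstream of the start site, and the match, read on the opposite strand, is in capitals from base −69 to base −54.
ABCA1 upstream: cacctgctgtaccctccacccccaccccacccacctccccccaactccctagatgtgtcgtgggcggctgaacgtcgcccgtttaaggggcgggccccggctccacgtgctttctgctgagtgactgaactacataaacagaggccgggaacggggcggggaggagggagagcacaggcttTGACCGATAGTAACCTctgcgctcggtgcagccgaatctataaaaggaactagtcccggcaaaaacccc
ABCA1 match on the opposite strand, hexamers in capitals: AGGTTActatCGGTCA

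ABCG5 and ABCG8 are read away from each other on chromosome 2. The start sites used for their RefSeq promoter windows lie on either side of 131 bases, chr2:43838840-43838970 on the plus strand of GRCh38.p14, which are shown because they are upstream of both of those start sites. The outer bounds of the ABCG5 gene reach past this stretch, to base 43839231, so by those bounds the stretch lies inside ABCG5 and the genes overlap.
ABCG5 to ABCG8: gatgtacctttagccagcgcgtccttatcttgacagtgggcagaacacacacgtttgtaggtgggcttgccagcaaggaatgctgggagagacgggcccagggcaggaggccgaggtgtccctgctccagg
Neither form of the DR4 was in the windows of these genes, which says only that these letters are not there. RefSeq promoter windows were matched for 7 members, and ABCG1 and SMPDL3A had none. A match is a description of the sequence, and no binding was measured.

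The receptors moved in opposite directions with RES. NR1H3 (LXRα, chr11:47248300-47269033 in the GRCh38.p14 build used for all positions) stood at 60.4, 66.3 and 63.3 CPM in the Con libraries and at 54.1, 49.3 and 49.7 CPM in Model. The libraries of FUCO-0.5 held 52.5, 50.3 and 53.6 CPM, those of FUCO-1 held 54.7, 56.3 and 64.8 CPM, and those of FUCO-2 held 64.3, 53.4 and 56.1 CPM. With RES it was at 36.3, 35.8 and 32.8 CPM. Every Model library lay below every Con library, and every RES library lay below all others. NR1H3 fell by 0.31 on the log2 scale in Model against Con (SE 0.082, adjusted p = 0.00917, edgeR) and by 0.55 in RES against Model (SE 0.083, adjusted p = 7.16e-06). Without Con replicate 2 the adjusted p in Model was 0.0520. FUCO did not move NR1H3 past the threshold at 0.5 μM (log2 fold change 0.03, 95% interval −0.14 to 0.20), 1 μM (0.20, 0.03 to 0.37, adjusted p = 0.206) or 2 μM (0.18, 0.01 to 0.35, adjusted p = 0.119). NR1H3 overlaps ACP2, so reads of the overlap are uncertain.

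NR1H2 (LXRβ, chr19:50376457-50383388, no overlapping gene) was the steadiest member that was tested. Its levels were 52.3, 45.6 and 43.9 CPM in Con, 44.03, 45.9 and 46.1 CPM in Model and 55.6, 59.5 and 56.2 CPM with RES. The FUCO libraries ran from 37.0 to 62.4 CPM, and FUCO-2 replicate 1 gave the highest value of all 18. RES libraries lay above all Model and Con libraries, and overlapped those of FUCO-2. NR1H2 rose by 0.33 in RES against Model (SE 0.11, adjusted p = 0.0115 from the edgeR test). In Model against Con its log2 fold change was −0.06 (95% interval −0.28 to 0.16), and at 2 μM FUCO against Model it was 0.20 (−0.02 to 0.42, adjusted p = 0.183).

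The ratio of NR1H3 to NR1H2 CPM within a library needs no scaling between libraries. It was 1.35 ± 0.170 in Con, 1.13 ± 0.0879 in Model, 1.23 ± 0.111 in FUCO-0.5, 1.31 ± 0.0579 in FUCO-1, 1.12 ± 0.0898 in FUCO-2 and 0.613 ± 0.0357 in RES (SD, n = 3). NR1H3 exceeded NR1H2 in all 15 libraries without RES, the lowest ratio being 1.03. With RES, NR1H2 exceeded NR1H3 in all 3, the highest ratio being 0.653. The ratio is of CPM and not per length.

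**Figure D2:**
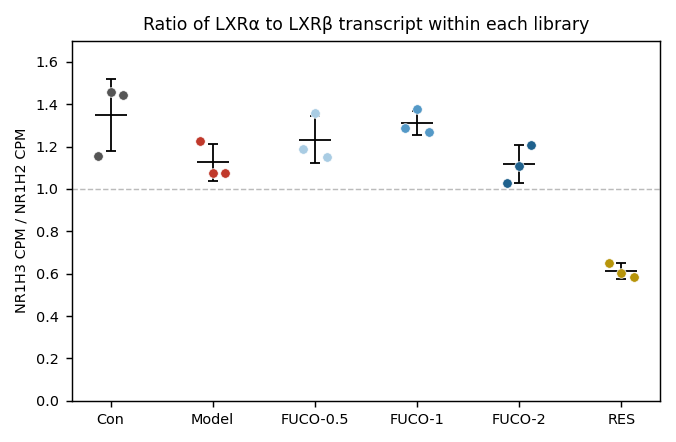
Ratio of NR1H3 CPM to NR1H2 CPM (vertical axis, no unit) within each library of the 6 groups, with bars for the mean ± SD of 3 libraries and a dashed line at 1. The 3 RES libraries lie between 0.584 and 0.653 and the 15 others between 1.03 and 1.46.

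Among the efflux transporters, ABCA1 (chr9:104781006-104928155) was lowered in steps from Con to Model, to FUCO-2 and to RES. It stood at 109, 121 and 123 CPM in Con and at 88.2, 84.4 and 79.7 CPM in Model. At 0.5 μM FUCO the libraries held 90.4, 96.3 and 79.4 CPM, at 1 μM 92.4, 83.6 and 91.7 CPM, and at 2 μM 74.5, 65.3 and 70.1 CPM. RES libraries held 41.4, 34.6 and 33.4 CPM. Con lay above all other libraries, FUCO-2 lay below all libraries of Con, Model and the lower doses, and RES lay below everything. The log2 fold change was −0.49 in Model against Con (SE 0.086, adjusted p = 2.68e-04, edgeR) and −1.20 in RES against Model (SE 0.090, adjusted p = 5.73e-11). ABCA1 fell by 0.27 at 2 μM FUCO against Model (SE 0.087, adjusted p = 0.0320), by 0.35 against 1 μM (adjusted p = 0.0153) and by 0.34 against 0.5 μM (adjusted p = 0.00880). At 0.5 and 1 μM the changes against Model were 0.08 (95% interval −0.10 to 0.26) and 0.09 (−0.09 to 0.26). The call at 2 μM against Model was lost without Model replicate 1 (adjusted p = 0.127) or replicate 2 (0.0800), without FUCO-2 replicate 2 (0.141) or replicate 3 (0.0621), and with library totals alone as scaling (0.0771), while its log2 fold change stayed negative in each of these fits. ABCA1 overlaps NIPSNAP3B and 2 uncharacterized loci.

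ABCG1 (chr21:42199689-42297244) had 20 counts over all 18 libraries, with 5 libraries at 0 and none above 3, the number that a count of 0 allows. It was not tested, and no fold change is given.

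The sterol exporters ABCG5 (chr2:43806211-43839231) and ABCG8 (chr2:43838971-43882988) were low and, of the comparisons with Model, passed the threshold with RES alone. ABCG8 stood at 7.90, 5.78 and 4.55 CPM in Model and at 2.18, 1.56 and 1.31 CPM with RES. ABCG5 stood at 1.48, 2.17 and 2.06 CPM in Model (27, 39 and 38 counts) and at 0.969, 0.861 and 0.746 CPM with RES (24, 16 and 16 counts). RES lay below Model in all libraries of both genes. ABCG8 fell by 1.83 (SE 0.33, adjusted p = 7.03e-05, edgeR) and ABCG5 by 1.13 (SE 0.40, adjusted p = 0.0208). The ABCG5 call was lost without Model replicate 2 (adjusted p = 0.0699), Model replicate 3 (0.0593) or RES replicate 3 (0.0651).

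The FUCO libraries of ABCG8 ran from 5.25 to 8.80 CPM and those of ABCG5 from 1.49 to 2.90 CPM. At 2 μM against Model the log2 fold change was 0.11 for ABCG8 (95% interval −0.47 to 0.69) and 0.18 for ABCG5 (−0.54 to 0.91) and neither passed the threshold (adjusted p = 0.829 and 0.762). Con replicate 1 stood apart for both, at 11.8 CPM of ABCG8 against 3.88 and 5.14 CPM in the other Con libraries and at 3.47 CPM of ABCG5 against 0.716 and 0.974 CPM. It stood apart over the tested genes as well. The chi-square per degree of freedom was 15.5 and 13.2 against Con replicates 2 and 3, and 2.30 between those. In Model against Con the log2 fold change of ABCG5 was 0.15 (adjusted p = 0.827) with that library and 1.15 (adjusted p = 0.0107) without it. That of ABCG8 was −0.19 (adjusted p = 0.700) with it and 0.42 (adjusted p = 0.227) without it. By their outer bounds the genes overlap by 261 bases, and ABCG5 also overlaps DYNC2LI1, so reads of those stretches are uncertain.

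MYLIP (chr6:16129086-16163887), also called IDOL, encodes a ubiquitin ligase that limits the uptake of lipoprotein cholesterol, and it was the member that FUCO lowered at each dose. It stood at 7.05, 11.3 and 10.3 CPM in Con and at 9.76, 12.6 and 9.10 CPM in Model. The levels were 7.85, 5.28 and 4.97 CPM at 0.5 μM FUCO, 5.60, 7.05 and 4.91 CPM at 1 μM, and 5.76, 6.65 and 7.29 CPM at 2 μM. With RES they were 5.09, 4.15 and 4.25 CPM. All 12 treated libraries lay below all 3 of Model, and Con replicate 1 lay among them. MYLIP fell to 57.6%, 55.9% and 62.8% of Model at 0.5, 1 and 2 μM, and its log2 fold change was −0.80, −0.84 and −0.67, each with an SE of 0.18. The adjusted p of these falls was 0.0217, 0.00913 and 0.0105 in edgeR's quasi-likelihood test. With RES it fell by 1.21 (SE 0.19, adjusted p = 8.43e-06). The doses were not shown to differ, with log2 fold changes of −0.04 between 1 and 0.5 μM (95% interval −0.44 to 0.36) and 0.17 between 2 and 1 μM (−0.23 to 0.57). RES was lower than FUCO-2 (−0.54, SE 0.20, adjusted p = 0.0259). Model and Con were not shown to differ (0.13, −0.23 to 0.50).

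These calls of MYLIP rested on few libraries. At 0.5 μM the call was lost without Model replicate 1 (adjusted p = 0.0531), Model replicate 2 (0.203), FUCO-0.5 replicate 2 (0.132) or FUCO-0.5 replicate 3 (0.119). At 1 μM it was lost without Model replicate 2 (0.0916) or FUCO-1 replicate 3 (0.0709), and at 2 μM without Model replicate 2 (0.0796). Across these fits the log2 fold change of MYLIP stayed between −0.84 and −0.52. Against Con, MYLIP was lower at all 3 doses, by 0.66 (adjusted p = 0.0120), 0.70 (0.00954) and 0.54 (0.0349) at 0.5, 1 and 2 μM. At 0.5 and 2 μM its libraries overlapped those of Con, where replicate 1 stood at 7.05 CPM. Fits without 1 library were kept for these comparisons only as counts of called members. Those counts ran from 1 to 4, 1 to 4 and 2 to 5 at the rising doses. Protein was not measured in these libraries. MYLIP overlaps the microRNA gene MIR4639, a pseudogene and an uncharacterized locus, so a part of its reads is uncertain.

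LPCAT3 (chr12:6976185-7018476) encodes an acyltransferase that builds polyunsaturated phosphatidylcholine into membranes. Its levels were 54.3, 52.8 and 58.2 CPM in Con, 59.6, 55.1 and 61.7 CPM in Model and 53.4 to 61.5 CPM at 0.5 and 1 μM FUCO. They were 46.6, 40.9 and 48.2 CPM at 2 μM and 38.8, 41.6 and 34.2 CPM with RES. The libraries of FUCO-2 and RES lay below all others and overlapped each other. LPCAT3 fell by 0.38 at 2 μM FUCO against Model (SE 0.085, adjusted p = 0.00276, edgeR), by 0.36 against 1 μM (adjusted p = 0.0109) and by 0.62 with RES against Model (SE 0.086, adjusted p = 1.67e-06). Its change was −0.01 at both 0.5 μM (95% interval −0.18 to 0.16) and 1 μM (−0.19 to 0.16). LPCAT3 overlaps EMG1.

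SMPDL3A (chr6:122789258-122809720, no overlapping gene) encodes a secreted phosphodiesterase related to acid sphingomyelinase, and it moved in opposite directions with FUCO and RES. It stood at 41.0, 33.1 and 32.1 CPM in Con and at 33.2, 35.8 and 35.8 CPM in Model. The levels were 33.3, 35.0 and 27.9 CPM at 0.5 μM FUCO, 30.6, 26.7 and 24.0 CPM at 1 μM, and 25.8, 24.4 and 28.2 CPM at 2 μM. With RES they were 44.9, 51.3 and 41.8 CPM. The libraries of FUCO-1 and FUCO-2 lay below, and those of RES above, all libraries of Model and Con. SMPDL3A fell by 0.42 on the log2 scale in FUCO-2 against Model (SE 0.11, adjusted p = 0.00815), and RES was higher by 0.40 (SE 0.11, adjusted p = 0.00315) in edgeR's quasi-likelihood test. At 1 μM it was −0.36 and missed the threshold (adjusted p = 0.0666), and it passed in 6 alternative fits, with DESeq2 among them (0.0404). RES and FUCO-2 themselves differed by 0.82 (SE 0.11, adjusted p = 1.11e-06).

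**Figure D3:**
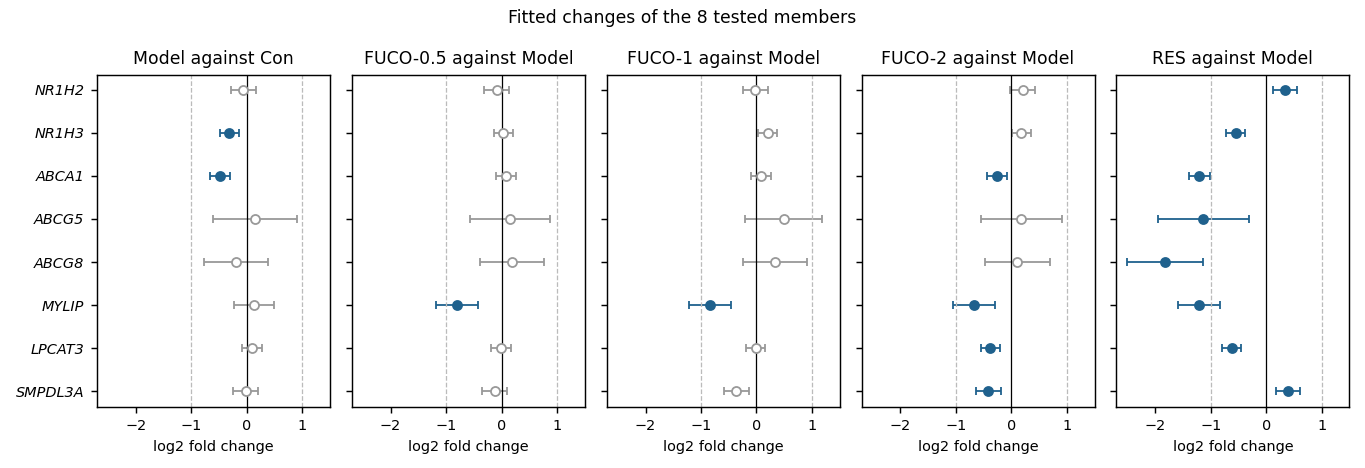
Log2 fold change (horizontal axes) of the 8 tested members in 5 comparisons, with 95% intervals, filled blue where the adjusted p was under 0.05 and open grey where it was not, and dashed lines at the DEG thresholds of −1 and 1. MYLIP is filled at every dose of FUCO, and all 8 are filled with RES, NR1H2 and SMPDL3A to the right of 0.

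Against Con, which received no FFA, 3 members were called at 0.5 μM FUCO (MYLIP, ABCA1 and NR1H3), 3 at 1 μM (MYLIP, SMPDL3A and ABCA1) and 4 at 2 μM (MYLIP, SMPDL3A, ABCA1 and LPCAT3), all lower, where 21.9%, 18.3% and 24.8% of all tested genes were called. ABCA1 was at 75.2%, 75.7% and 59.3% of Con at the 3 doses. RES against Con called all 8 tested members, against 57.3% of all genes, with ABCA1 at 31.0% and ABCG8 at 24.7% of Con. The call of ABCG5 lay near the threshold (adjusted p = 0.0422, edgeR). Its RES libraries, at 0.969, 0.861 and 0.746 CPM, lay between Con replicates 2 and 3, at 0.716 and 0.974 CPM. Con replicate 1 stood apart, at 3.47 CPM of ABCG5 and 11.8 CPM of ABCG8. Leaving out 1 library at a time left 6 to 8 members called in RES against Con. Between doses, 0 of 8 were called for FUCO-1 against FUCO-0.5 by edgeR and by DESeq2, with 2 at an unadjusted p under 0.05, where 0.00687% of all genes were called. The share of all genes at an unadjusted p under 0.05 was not computed, here or for the lists that follow. FUCO-2 against FUCO-1 called 2, ABCA1 and LPCAT3, against 6.3% of all genes, and FUCO-2 against FUCO-0.5 called the same 2, against 15.1%. RES against FUCO-2 called 7, every tested member but NR1H2, against 48.4%. Con enters all comparisons with FUCO and RES in this paragraph that name it, so they are not independent of each other.

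Levels between genes were compared as CPM per kb of transcript length. Over all 18 libraries the means were 28.6 CPM per kb for NR1H3, 23.4 for LPCAT3, 20.0 for NR1H2, 19.1 for SMPDL3A, 7.79 for ABCA1, 2.33 for MYLIP, 0.832 for ABCG8, 0.691 for ABCG5 and 0.0200 for ABCG1. In Model, NR1H3 at 27.6 and LPCAT3 at 26.3 CPM per kb led, and NR1H2 at 18.8 and SMPDL3A at 19.8 followed. With RES the order was SMPDL3A at 26.1, NR1H2 at 23.6, NR1H3 at 18.9 and LPCAT3 at 17.1 CPM per kb. The group means of the members spanned 0.43 on the log2 scale for NR1H2, the narrowest among the 8 tested, and 2.14 for ABCG8, the widest.

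The partners of the receptors were followed next. RXRA, the main RXR of liver, had 186 ± 7.56 CPM in Model and 85.2 ± 3.96 CPM with RES, a fall of 1.13 on the log2 scale (SE 0.10, adjusted p = 1.60e-09, edgeR). RXRB stood at 14.2 ± 1.16 and 15.7 ± 0.591 CPM (log2 fold change 0.14, adjusted p = 0.235), and RXRG had 0 counts in every library. TTC39B, whose product is known to promote the degradation of LXR, rose from 0.586 ± 0.133 to 4.57 ± 0.682 CPM with RES (2.95, SE 0.30, adjusted p = 1.36e-08). Of 9 tested partners and coregulators, 2 rose and 3 fell with RES (median −0.13), a share near the 49.4% of all tested genes called there. With FUCO, 0 were called at 0.5 and at 1 μM by edgeR or DESeq2, with 0 at an unadjusted p under 0.05, and 1 rose at 2 μM, where 20.5% of all genes were called. In Model against Con 1 fell, where 17.6% were called.

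Other known LXR targets were called mainly as lower in Model against Con and with RES. Of 12 tested, 9 fell and 1 rose in Model against Con (median log2 fold change −0.36, against 0.00106 over all tested genes), and 9 fell and 2 rose in RES against Model (median −0.76, against 0.00233). Over all tested genes 9.12% were called lower in the former comparison and 25.1% in the latter. SREBF1, the transcription factor of fatty acid synthesis, had 381 ± 23.9 CPM in Con, 301 ± 20.2 in Model and 136 ± 8.67 with RES, and fell in both comparisons (−0.34, adjusted p = 0.0354, and −1.15, adjusted p = 8.72e-09). Its target FASN, fatty acid synthase, had 2545 ± 179 CPM in Model and 1081 ± 24.6 CPM with RES (−1.24, adjusted p = 1.15e-08). PLTP, the phospholipid transfer protein, fell by 1.06 (adjusted p = 1.35e-06). With FUCO, 4 of the 12 fell at 2 μM and none rose (median −0.23, against 0.00960 over all tested genes, of which 9.71% were called lower). At 1 μM 1 fell, RNF145, a sterol-regulated ubiquitin ligase named here after its value was seen (−0.32, adjusted p = 0.0275), where 2.32% of all genes were called lower. RNF145 went against most of the list in Model, at 34.1 ± 2.66 CPM in Con and 53.8 ± 3.63 CPM in Model. At 1 μM it had 42.9 ± 3.76 CPM, still above Con. At 0.5 μM edgeR called 0, with 6 at an unadjusted p under 0.05 and 2 called by DESeq2. Over all genes edgeR called 1.45% at that dose and DESeq2 300 of 24090. The unadjusted count has no share over all genes beside it.

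Of 11 genes of cholesterol export and esterification, 6 fell and 1 rose with RES (median −0.47), where 49.4% of all tested genes were called and 25.1% were called lower. LIPC, hepatic lipase, fell by 2.46 (adjusted p = 1.50e-15), APOA1, the acceptor of ABCA1 cholesterol, by 2.56 (adjusted p = 2.20e-13), and LCAT, which esterifies cholesterol on lipoproteins, by 1.13 (adjusted p = 1.92e-07), all by the edgeR test. NCEH1, a cholesteryl ester hydrolase, rose from 16.7 ± 0.414 to 36.3 ± 2.19 CPM (1.12, adjusted p = 2.87e-10). In Model against Con 3 of the 11 fell and 1 rose, where 17.6% of all genes were called, and at 2 μM FUCO 4 fell and 1 rose, where 20.5% were called. At 0.5 μM edgeR and DESeq2 called 0, with 2 at an unadjusted p under 0.05, and at 1 μM edgeR called 0 and DESeq2 1, with 3 at an unadjusted p under 0.05. Of 6 tested enzymes that make or remove oxysterols, the ligands of LXR, 1 fell in Model, 1 fell at 2 μM FUCO, and 3 fell and 2 rose with RES. The shares of all tested genes called in these comparisons were 17.6%, 20.5% and 49.4%, so the counts in Model and at 2 μM are near that background. At 0.5 and at 1 μM FUCO edgeR called 0, with 1 at an unadjusted p under 0.05 and 1 called by DESeq2 at each dose. Over all genes at these doses edgeR called 1.45% and 3.21%, and DESeq2 300 and 652 of 24090.

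The targets of SREBP2, which responds to low sterols where LXR responds to high, were taken with the substrates of MYLIP. Of 11 tested, 10 fell in Model against Con (median −0.46), 3 fell at 1 μM FUCO, 7 fell at 2 μM (median −0.43), and 9 fell and 2 rose with RES (median −0.57). Over all tested genes 9.12%, 2.32%, 9.71% and 25.1% were called lower in these comparisons. SREBF2 itself fell in Model (−0.42, adjusted p = 2.53e-04) and with RES (−0.49, adjusted p = 7.00e-06). STARD4, a sterol carrier, fell from 219 ± 31.6 to 108 ± 4.39 CPM in Model (−1.02, adjusted p = 6.30e-08), the only gene of the list that was a DEG there. With RES, HMGCS1 of cholesterol synthesis fell by 1.43 (adjusted p = 1.38e-11). VLDLR, a substrate of MYLIP, rose from 11.3 ± 1.26 to 26.0 ± 1.74 CPM (1.20, adjusted p = 1.67e-09). At 0.5 μM edgeR called 0 of the 11, with 7 at an unadjusted p under 0.05 and 2 called by DESeq2. Over all genes edgeR called 1.45% at that dose and DESeq2 300 of 24090. The unadjusted count has no share over all genes beside it.

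**Figure D4:**
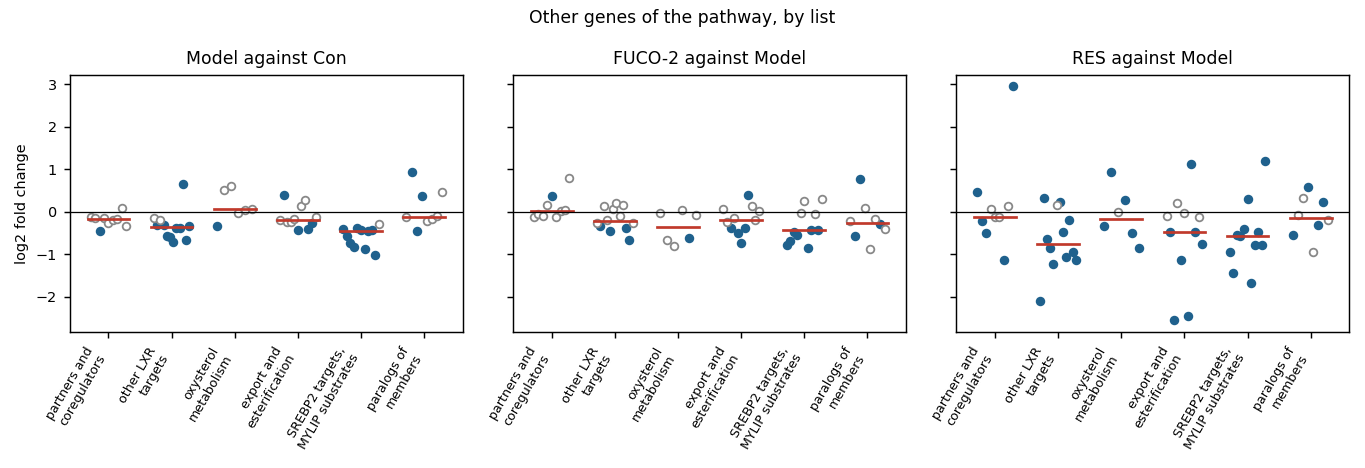
Log2 fold change (vertical axis) of the tested genes of 6 lists (horizontal axis) in 3 comparisons, with 1 point per gene, filled blue where the adjusted p was under 0.05, and a red line at the median of the list. The medians of the other LXR targets lie at −0.36 in Model against Con and at −0.76 in RES against Model.

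Markers of the hepatocyte state moved beside these genes. Of 8 hepatocyte markers, 5 fell in Model against Con (median −0.29), 1 fell at 1 μM FUCO, all 8 fell at 2 μM (median −0.56), and 7 fell and 1 rose with RES (median −2.07). Over all tested genes the shares called lower were 9.12%, 2.32%, 9.71% and 25.1%. ALB was at 33912 CPM in Model and 7528 CPM with RES, and APOA1 belongs to this list too. At 0.5 μM edgeR called 0, with 3 at an unadjusted p under 0.05 and 1 called by DESeq2, where edgeR called 1.45% of all genes and DESeq2 300 of 24090. The part of this change in the levels of the LXR genes was not tested. The 6 macrophage markers summed to 5.19 to 7.40 CPM in Con, 16.0 to 21.7 CPM in Model, 14.2 to 16.9 CPM in FUCO-2 and 17.03 to 18.5 CPM in RES. Of the 2 that were tested, LYZ rose in Model against Con and fell with RES to 6.08 ± 0.494 CPM, and CD14 rose with RES. The 5 fibroblast markers summed to 28.1 to 36.7 CPM in Con, 18.5 to 20.4 CPM in Model, 15.5 to 18.4 CPM in FUCO-2 and 11.3 to 13.8 CPM in RES. Of the 4 tested, 1 rose and 2 fell in Model against Con, and 2 rose and 1 fell with RES. Over all tested genes 17.6% were called in Model against Con and 49.4% in RES against Model. The part of these markers in the levels of the LXR genes was not tested either. Of the paralogs of the members (10 genes, 8 tested), 2 were higher and 2 lower with RES (median −0.14), a share near the 49.4% of all tested genes.

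The genes whose pattern was most like a member's were sought for the 4 members that averaged 1 CPM or more and had group means at least 1 apart on the log2 scale. Likeness was the root mean square (RMS) difference of centred log2 CPM over 18 libraries, among 13076 genes, and the points share libraries and depth. Nearest to ABCA1 were ACSL4, an acyl-CoA synthetase (RMS 0.0963), the repressor BCL6 (0.134) and ZNF69 (0.135), where the median gene differed by 0.571. ACSL4 went from 1191 CPM in Con to 885 in Model, 745 at 2 μM FUCO and 349 with RES. Nearest to ABCG8 were ORM2 (0.290), SULT1E1 (0.298) and PLPP2 (0.3002), to ABCG5 SLC25A47 (0.271), PRODH2 (0.338) and PGLYRP2 (0.338), and to MYLIP the transcription factor KLF11 (0.190), CCDC38 (0.239) and RND3 (0.249). In Con, PLPP2 (13.4 ± 8.36 CPM) and PGLYRP2 (4.62 ± 3.72) spread widely, as did ABCG8 (6.94 ± 4.25) and ABCG5 (1.72 ± 1.52). The part of single Con libraries in these likenesses was not tested. KLF11 had 14.7 CPM in Model, 9.95 in FUCO-0.5, 8.60 in FUCO-1, 8.91 in FUCO-2 and 6.67 CPM in RES.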

How the data were processed

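RNA-seq of Hep3B cells in 6 groups of 3 libraries was used, each library taken to its group by its title. The authors aligned reads with STAR to GRCh38 and counted them per gene with featureCounts, and the deposited values are raw counts by gene symbol, without normalization. Strand use and the treatment of reads with several matches are not given in the sources used here. Totals ran from 16916688 to 23083498 counts, reads carry no molecular identifiers, and counting error alone is covered by the floor of 3 counts.

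Counts were fitted in R 4.3.3 with edgeR 4.0.16: filterByExpr (minimum count 10, minimum total 15), TMM scaling, and the quasi-likelihood test on all 18 libraries with 1 term per group and prior count 0.125, Benjamini-Hochberg adjusted over 14557 genes, for 13 comparisons. The study's methods use DESeq2, run here as an alternative (1.42.0). A call is an adjusted p under 0.05, and a DEG also has an absolute log2 fold change over 1. The p-values test a difference against the spread between libraries within groups. That spread was estimated per gene over all 6 groups together, not from the 2 groups compared. Intervals are at 95%. The fits were tested on simulated counts for RES against Model. There edgeR called 91% of 100 genes changed by 1 on the log2 scale and 66% of 100 changed by 0.5. It also called 7 unchanged genes. A change of 0.5 can therefore miss the threshold. In the simulation all other genes were unchanged, and the spread of each gene followed the trend over genes. In the real comparison 49.4% of genes were called, so these rates need not hold for it. No 2 libraries of a group agreed within sampling noise (chi-square per degree of freedom 2.30 to 19.3). The highest values, 19.3 and 18.6, were those of FUCO-2 replicate 1 against replicates 2 and 3.

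The members, the lists (receptor partners and coregulators, other LXR targets, oxysterol metabolism, cholesterol export and esterification, SREBP2 targets and MYLIP substrates, paralogs, and hepatocyte, macrophage and fibroblast markers) and the tests were chosen with earlier results of these data known. All 9 members were named, then, per list and main comparison, at most 4 DEGs with the smallest adjusted p, with RXRA, RXRB, SREBF1 and SREBF2 for context, and the 3 genes nearest to each member that varied enough. Values of 3 further genes that the rule names are not reported here. Other genes named are marker genes or are marked where they occur. Transcript lengths are those of MANE Select in GENCODE v44. Gene positions and promoter windows are RefSeq's on GRCh38.p14. Alternatives were DESeq2, no filter, a minimum of 10 counts in every library, RLE factors, a replicate block, fits of 2 groups, the DEG rule, leaving out each library, and, chosen after seeing the data, library totals alone as scaling and a fit without the RES libraries.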

Additional observations from a re-analysis of the deposited data

How the results depend on the processing

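Counts were low for ABCG5 (12 to 60 per library), ABCG8 (28 to 204) and ABCG1, and the spread between libraries of a group exceeded sampling noise. How much each widened the intervals was not tested. Library totals alone as scaling, chosen after seeing the data, moved the median of all genes to 0.14 in RES against Model, 0.19 in RES against Con and 0.12 in FUCO-2 against Con, and no called direction of a member changed with it. A fit without the RES libraries was also chosen after seeing the data. Of 1032 alternative values for 40 log2 fold changes, 983 kept direction and side of the threshold, 16 were no longer past it, 8 newly passed it and 25 changed sign, none of those 25 called with all libraries and TMM scaling. Of 348 alternative counts of called members, 307 stayed within 1.5 times.

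The DEG rule left 0 members in every comparison except RES against Model (4), RES against Con (3) and RES against FUCO-2 (2). Of all 14557 tested genes, 9.91% were DEGs in RES against Model. In RES against Con 713 of them were DEGs as higher and 1221 as lower. In RES against FUCO-2 372 were higher and 941 lower. At 1 μM FUCO against Model 2 members passed, MYLIP with SMPDL3A, without a filter (adjusted p of SMPDL3A 0.0152), with DESeq2 (0.0404) and in a fit of the 2 groups (0.00850). In FUCO-2 against Con 2 passed with library totals alone and in the fit of those 2 groups, and 4 passed in FUCO-2 against FUCO-0.5 without a filter. With library totals alone the log2 fold change changed sign to 0.039 for SMPDL3A and 0.00049 for NR1H2 in Model against Con, to 0.022 for LPCAT3 at 0.5 μM, and to 0.0087 for LPCAT3 and 0.0033 for NR1H2 at 1 μM, and NR1H3 at 2 μM passed as higher (0.23, adjusted p = 0.0428). These shifts are those of the scaling itself.

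Leaving out 1 library at a time moved the number of called members from 1 to 3 in Model against Con, from 0 to 1 in FUCO-0.5 against Model, from 0 to 2 in FUCO-1 against Model, from 2 to 4 in FUCO-2 against Model, from 1 to 4 in FUCO-0.5 against Con, from 1 to 4 in FUCO-1 against Con, from 2 to 5 in FUCO-2 against Con, from 0 to 2 in FUCO-2 against FUCO-1 and from 1 to 4 in FUCO-2 against FUCO-0.5. For RES the number ran from 7 to 8 against Model, from 6 to 8 against Con and from 5 to 7 against FUCO-2. The calls over all tested genes moved in the same fits. They ran from 1597 to 3047 in Model against Con. Against Model they ran from 110 to 290 in FUCO-0.5, from 220 to 661 in FUCO-1, from 1972 to 3366 in FUCO-2 and from 6130 to 7539 in RES. Over these fits the log2 fold change ran in Model against Con from −0.47 to 0.42 for ABCG8, −0.042 to 0.27 for MYLIP, −0.088 to 0.097 for SMPDL3A, −0.11 to 0.020 for NR1H2 and −0.21 to 1.15 for ABCG5. For FUCO-0.5 against Model the range was −0.054 to 0.050 for LPCAT3, −0.050 to 0.27 for ABCG5, −0.0036 to 0.42 for ABCG8 and −0.16 to 0.0017 for NR1H2. For FUCO-1 against Model the range was −0.058 to 0.028 for LPCAT3 and −0.12 to 0.042 for NR1H2. For FUCO-2 against Model the range was −0.063 to 0.34 for ABCG8 and −0.030 to 0.40 for ABCG5. Where a group was left with 2 libraries, the spread was still shared over all groups. Why single libraries had this weight was not tested.

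Replicate numbers were not used to pair the libraries in the main fit. Of pairs from different groups, 7 of 45 with the same number had deviations correlated above 0.1, and 8 of 90 with different numbers. The median correlations were 0.024 and −0.023. These values do not decide whether the replicates were paired, since the pairs share libraries. A replicate block gave 2 called members at 1 μM FUCO against Model (SMPDL3A at an adjusted p of 0.0467) and changed no other count of called members.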
